A study of Spodoptera litura with 9 samples.

Results

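Long non-coding RNAs (lncRNAs) were compared between the fusing testes of Spodoptera litura prepupae and the single testis of newly formed pupae. Spodoptera litura is the tobacco cutworm, a noctuid moth. The comparison took all lncRNA transcripts of the count table in 6 of the 9 libraries of the series. These were 3 libraries of larvae at day 6 of the sixth instar (L6D6, prepupae, testes fusing) and 3 libraries of pupae at day 0 (P0D, testis fused). The other 3 libraries were of larvae at day 4 of the sixth instar (L6D4, testes still separate). They serve here to give each changed transcript its earlier level. No genotype or treatment separated the stages. All animals were kept at 27 ± 1 °C, 70 ± 5% relative humidity and 16 h of light to 8 h of dark, and the labels list an artificial diet for the larvae but no food for the pupae. Animals were pooled in an unstated way, since the labels give 9 males and 3 repeats a stage without saying how the males were divided. The p-values below therefore measure the spread between these libraries, which may be technical. Age, moulting stage and fusion change together from L6D6 to P0D and cannot be told apart. In whole testes, a lower level can mean fewer cells of a type or less RNA per cell, and these cannot be told apart either.

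In larvae of many moths the testes are a left and a right organ that meet at the midline and merge around pupation; in the silkworm Bombyx mori they stay apart. The moult from larva to pupa is driven by ecdysteroids, steroid hormones whose pulses switch sets of genes on and off for short times in many tissues, while spermatogenesis goes on inside the testis. LncRNAs are long transcripts without an evident coding region; some act on chromatin, some on messenger RNAs or proteins, and for most insect lncRNAs no function is known. In the fruit fly Drosophila melanogaster many lncRNAs are made mainly in the testis.

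The table held 2476 lncRNA transcripts, 557 with RefSeq accessions (IDs that begin with XR) and 1919 with the IDs of a transcript assembly (MSTRG, then a locus number and a transcript number). The files do not pair assembled IDs with genes, so those transcripts have no name beyond their ID. Among the annotated IDs, 3 matched RefSeq genes listed as protein coding, and XR_002697291.1 matched a transcribed pseudogene. Coding genes are otherwise not in this table, so the tissue label could not be checked against testis markers. Levels are given in CPM, counts per 1000000 lncRNA counts of the library after multiplying its total by its TMM factor, a correction for differences in composition. They are shares of the lncRNA table, not of all RNA, and they are not corrected for transcript length. The 9 libraries held between 2665564 and 4262520 lncRNA counts. One library, P0D replicate 3, stood apart in composition: its 10 transcripts with most counts took 59.4% of its total, against 64.3% to 72.1% in the other 8, and its TMM factor was 1.448 against 0.741 to 1.126. Over the L6D6 and the P0D libraries, those 10 took 66.2% ± 1.75 and 66.3% ± 6.4 of the counts, and 2147 ± 2.52 and 2148 ± 16.2 transcripts had a count (SD, n = 3 per stage). Neither measure, nor the library total, passed a test between these stages (two-sided exact permutation tests, p = 1 and adjusted p = 1 for each of these 3 measures; the smallest p that 3 against 3 libraries can give is 0.1).

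Few lncRNAs were called between the fusing and the fused testis in edgeR's test, and most of those called were lower in the fused testis. Of 1913 transcripts tested, 34 passed a Benjamini-Hochberg adjusted p under 0.05 in edgeR's quasi-likelihood test, which is 1.78% of those tested. Of these, 9 were higher at P0D (0.47% of those tested) and 25 were lower (1.31%). The fitted change was at least 2-fold for 32 of the 34. Over all 1913 transcripts the median log2 fold change was 0.01, with quartiles of -0.22 and 0.28. The median was 2.64 among the 9 that rose and -2.49 among the 25 that fell, as the choice of these transcripts by their change requires. The other contrasts of the same fit called 22.1% of tested transcripts between L6D4 and L6D6 and 26.6% between L6D4 and P0D. Before adjustment, 223 transcripts had a p under 0.05 in edgeR's test, 117 higher and 106 lower, so the excess of falls over rises was seen among adjusted calls and not among these. DESeq2 called 63 transcripts, 29 higher and 34 lower, including all 34 of edgeR. limma-voom called 46, 19 higher and 27 lower, also including those 34. Without P0D replicate 3, edgeR called 38, 12 higher and 26 lower, with 32 of the 34 among them. Without P0D replicate 1 it called 45, 17 higher and 28 lower.

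**Figure D1:**
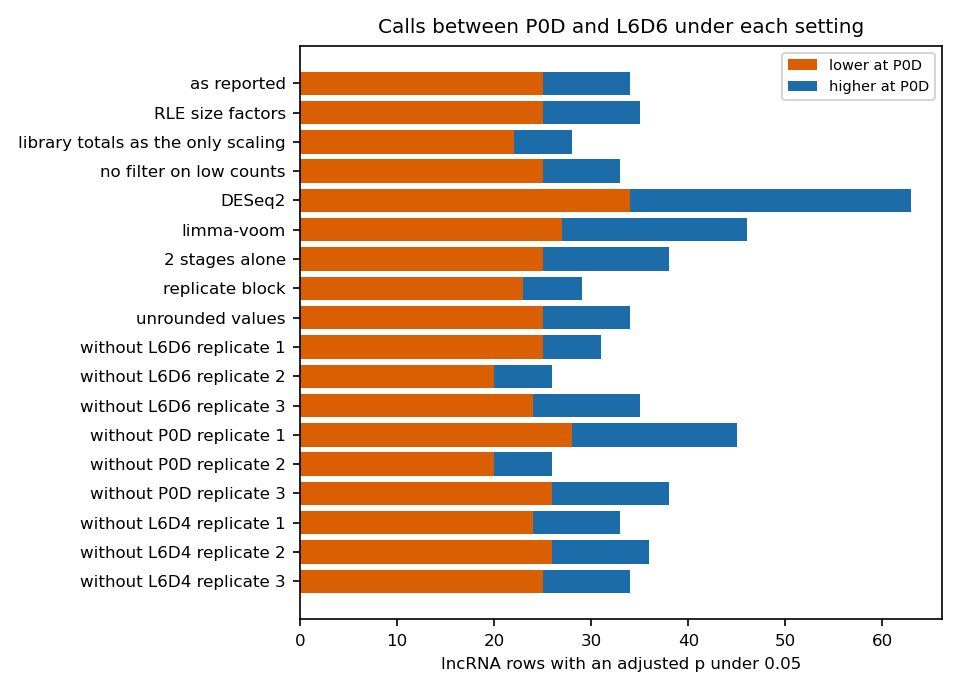
Number of lncRNAs with an adjusted p under 0.05 between L6D6 and P0D (bars from 0, split into lower and higher at P0D) for the main result and each of 17 alternatives. The number lower lies between 20 and 34 and the number higher between 6 and 29, with DESeq2 at the top of both ranges.

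**Figure D2:**
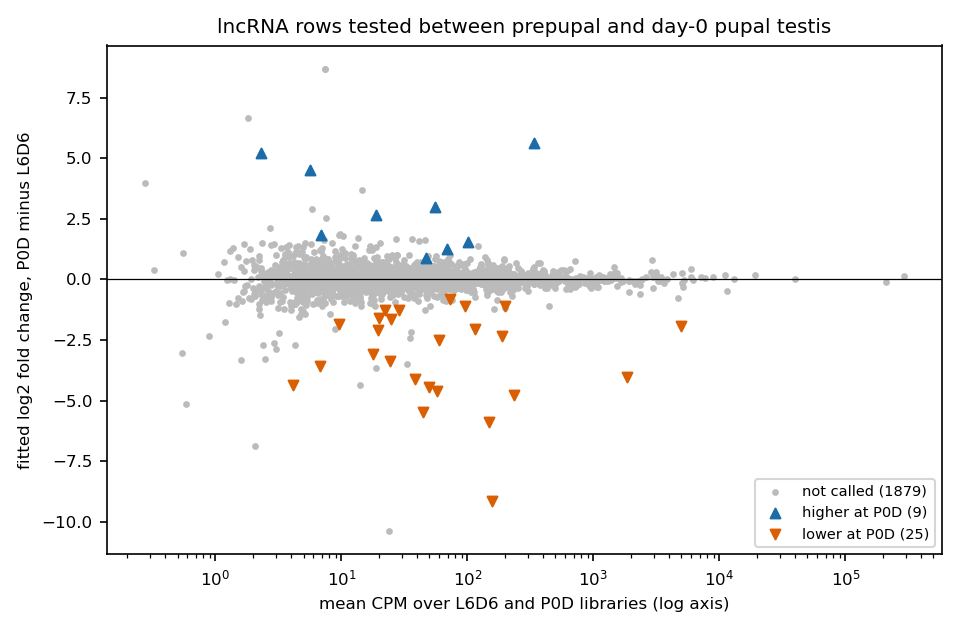
Fitted log2 fold change from L6D6 to P0D (vertical axis) against the mean CPM over the 6 libraries of these stages (log axis) for the 1913 tested lncRNAs. The 9 transcripts called higher (upward triangles) and 25 called lower (downward triangles) stand away from the bulk, whose quartiles are -0.22 and 0.28; some uncalled transcripts with low levels lie as far out.

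All 34 called transcripts had CPM that did not overlap between the L6D6 and P0D libraries; such separation was found for 17.4% of all tested transcripts (8% higher and 9.41% lower at P0D). Another 106 transcripts had a fitted change of at least 2-fold without a call, 62 higher and 44 lower, and 62 of these 106 did not overlap between the stages. Their median level was 5.64 CPM over the 9 libraries, against 30.8 CPM for all tested transcripts.

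The 25 transcripts that fell were mostly ones that stood highest in the fusing testis. For 20 of the 25 the mean was higher at L6D6 than at L6D4 or P0D, and for 17 of those 20 every L6D6 library lay above every L6D4 library, a separation found for 21.6% of all tested transcripts. The 3 stages were compared in a single fit, and the contrasts of L6D6 and P0D with L6D4 share libraries with the one that chose these transcripts. The order of the stages is therefore a description. Relative to L6D4, every P0D library lay above for 6 of these 17 transcripts, the ranges overlapped for 7, and every P0D library lay below for 4. The P0D against L6D4 contrast of the same fit differed from these ranges in part. MSTRG.3312.1, among the 6, had an adjusted p of 0.177, and MSTRG.3619.1, among the 4, had 0.0968 (edgeR). MSTRG.17033.1, among the 7, was called lower at P0D (adjusted p = 0.0262 by edgeR). Over all tested transcripts, 18.7% lay wholly above L6D4 at P0D and 19.9% wholly below it.

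The assembled transcript MSTRG.15510.1 had more counts than any other that fell. It stood at 7987, 7221 and 8158 CPM in the 3 L6D6 libraries and at 1779, 2493 and 1878 CPM in the 3 P0D libraries. At L6D4 it was close to absent, with 2, 4 and 4 counts, or 0.59, 1.40 and 2.03 CPM. So the transcript fell 3.8-fold after fusion (log2 fold change -1.93, SE 0.20, adjusted p = 0.000106 by edgeR) and yet remained far above its larval level in all 3 libraries. MSTRG.15511.1, whose locus number is the next one, had no count at L6D4, then 199.5, 162.6 and 188.8 CPM at L6D6 and 45.3, 46.2 and 42.6 CPM at P0D, a 4.11-fold fall (log2 fold change -2.04, SE 0.20, adjusted p = 0.000231 by edgeR). The ratio of counts of MSTRG.15510.1 to MSTRG.15511.1 lay between 40 and 44.4 in the L6D6 libraries and between 39.3 and 54 in the P0D libraries, so these transcripts moved nearly in step. Whether the loci lie side by side is not stated in the files.

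A second set of close locus numbers held 4 falling transcripts. MSTRG.17032.1 stood at 3455, 3655 and 3345 CPM at L6D6 and at 169, 287 and 184 CPM at P0D, a 16.4-fold fall (log2 fold change -4.03, SE 0.28, adjusted p = 5.85e-06 by edgeR). Its L6D4 level was intermediate, at 406, 316 and 597 CPM, so the fused testis held less of it than the larval testis. MSTRG.17033.1 had 88.5, 67.1 and 62.4 CPM at L6D6, and 2.21, 7.40 and 2.78 CPM at P0D (17.6-fold lower), with 12.4, 7.36 and 15.7 CPM at L6D4. The ratio of counts of MSTRG.17032.1 to MSTRG.17033.1 was less even than that of the pair above. It was 39.1, 54.5 and 53.6 in the L6D6 libraries and 76.4, 38.8 and 66.3 in the P0D libraries. MSTRG.17050.1 had 335, 263 and 283 CPM at L6D6, and 6.62, 5.62 and 2.52 CPM at P0D (59.6-fold lower). It had been lower still at L6D4, with 1.77, 0.70 and 1.52 CPM, so it was a transcript of the fusing testis almost alone among the sampled stages. MSTRG.17048.1 was even among the L6D6 libraries, at 32.4, 30.2 and 32.2 CPM, and fell 4.25-fold to 8.83, 7.91 and 5.55 CPM, a range that overlapped with its 5.32, 3.16 and 7.09 CPM at L6D4. Without P0D replicate 2 the log2 fold change of MSTRG.17033.1 was -4.84, against -4.12 with it. Adjusted p for MSTRG.17033.1, MSTRG.17050.1 and MSTRG.17048.1 were 0.000127, 8.76e-07 and 0.00217 (edgeR). These 4 transcripts, like the pair above, were grouped by locus number after their values had been seen.

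MSTRG.13874.1 had the largest fall of the 25. It had no count in the L6D4 libraries, stood at 196, 355 and 390 CPM at L6D6, and was back to 1.38, 0.26 and 0 CPM at P0D, from 5, 1 and 0 counts. The P0D mean was 576-fold below that of L6D6 (log2 fold change -9.13, SE 0.60, adjusted p = 2.38e-05 by edgeR), and the L6D6 mean was at least 859-fold higher than at L6D4, taking 3 counts over the 3 libraries as the floor there. The P0D mean rested mainly on P0D replicate 1, without which the log2 fold change was -10.91 (edgeR). MSTRG.20834.1 had a similar course at a lower level, with 4, 0 and 4 counts at L6D4, 118, 89.3 and 53 CPM at L6D6 and 2.76, 1.28 and 1.77 CPM at P0D (44.8-fold lower, adjusted p = 6.81e-05 by edgeR). For both, the L6D4 and P0D libraries overlapped while every L6D6 library stood apart.

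MSTRG.18870.2 was the most uneven of the falling transcripts at L6D6, where its libraries had 212, 362 and 793 CPM. The P0D libraries had 20.2, 14.3 and 15.9 CPM and the L6D4 libraries 17.7, 29.1 and 24.3 CPM, so after a fall of 27.1-fold 1 P0D library lay within the larval range and the others below it. Without L6D6 replicate 3 the log2 fold change of MSTRG.18870.2 was -4.10, against -4.76 with it (edgeR). MSTRG.12294.1 returned to within its larval range, from 171, 365 and 401 CPM at L6D6 to 60.7, 61.8 and 63.1 CPM at P0D, beside 56.4, 46.6 and 78 CPM at L6D4. MSTRG.3312.1 fell from 50.7, 25.2 and 58.2 to 6.07, 3.57 and 3.28 CPM, just above its 2.66, 2.45 and 1.52 CPM at L6D4. Adjusted p of these 3 were 6.81e-05, 0.000819 and 0.000256 (edgeR).

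MSTRG.7605.1 and MSTRG.3619.1 went through L6D6 to end with every P0D library below every L6D4 library. Between P0D and L6D4 their adjusted p were 0.0251 and 0.0968 (edgeR). MSTRG.7605.1 had 29.8, 32.3 and 43.6 CPM at L6D4, then 68.9, 117 and 120 CPM, then 17.1, 22 and 15.1 CPM. MSTRG.3619.1 had 14.5, 18.6 and 19.8 CPM at L6D4, then 36.2, 39.7 and 36.1 CPM, then 13, 11.2 and 11.6 CPM. The falls from L6D6 were 5.64-fold and 3.13-fold (adjusted p = 0.000231 and 0.00113 by edgeR). MSTRG.6849.1 and MSTRG.14823.1 fell less and stayed above L6D4. MSTRG.6849.1 went from 24.9, 32.5 and 32.4 CPM to 11, 8.93 and 9.84 CPM, after 2.96, 3.51 and 5.57 CPM at L6D4 (3.01-fold lower than at L6D6, adjusted p = 0.00803 by edgeR). MSTRG.14823.1 went from 35.7, 37.9 and 46.9 CPM to 16.8, 18.6 and 14.9 CPM, after 6.50, 7.01 and 11.1 CPM at L6D4 (2.39-fold, adjusted p = 0.0224 by edgeR). These last calls were lost when some single libraries were left out. Over the 17 alternatives the log2 fold change stayed between -1.71 and -1.52 for MSTRG.6849.1 and between -1.34 and -1.13 for MSTRG.14823.1. That of MSTRG.6849.1 ended without L6D6 replicate 2 (adjusted p = 0.0638) or P0D replicate 2 (0.071), and that of MSTRG.14823.1 without L6D6 replicates 2 or 3 or any P0D library (0.0607 to 0.117) and when libraries were scaled by their totals alone (0.0671, edgeR).

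**Figure D3:**
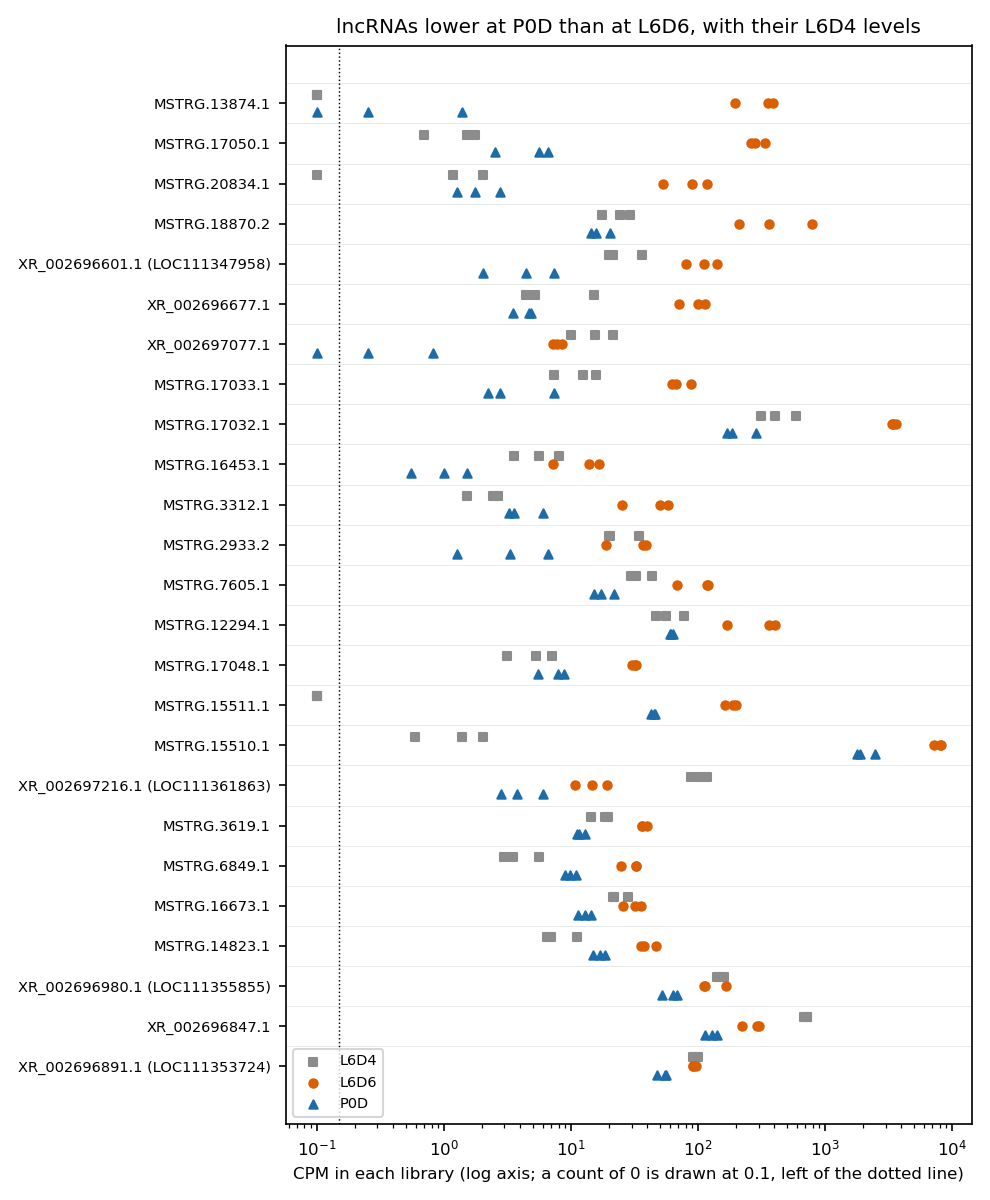
CPM in each of the 9 libraries (log axis) for the 25 lncRNAs lower at P0D than at L6D6, ordered by the fitted change, with squares for L6D4, circles for L6D6 and triangles for P0D. Circles lie to the right of triangles in every row because the transcripts were chosen for this. The squares show that 17 of the 25 had been lower in every L6D4 library than in every L6D6 library. XR_002696847.1, XR_002697216.1 and XR_002697077.1 had been higher in every L6D4 library than in every L6D6 library.

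Annotated transcripts made up 7 of the 25 falls, and only 2 of these 7 stood highest at L6D6. XR_002696601.1, of the lncRNA gene LOC111347958, had 80.2, 112 and 141 CPM at L6D6 and 4.42, 7.40 and 2.02 CPM at P0D. All P0D libraries also lay below the 21.3, 20 and 36 CPM of the L6D4 libraries. The fall was 24.1-fold from L6D6 (log2 fold change -4.58, SE 0.43, adjusted p = 6.81e-05 by edgeR). In the assembly ASM270686v4, LOC111347958 overlaps no coding gene and lies between the coding genes c12.2 and LOC147877706. XR_002696677.1, which matched no gene in the RefSeq table used here, had 71.6, 113 and 100.1 CPM at L6D6 and 4.69, 4.85 and 3.53 CPM at P0D (21.8-fold lower, adjusted p = 6.81e-05 by edgeR), beside 4.43, 5.26 and 15.2 CPM at L6D4. For this transcript the fused and the larval testis overlapped.

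The other 5 annotated transcripts had their highest mean at L6D4, with every L6D6 library below every L6D4 library in 3 of them and an overlap in the other two. XR_002696847.1, without a gene match, had 720, 689 and 716 CPM at L6D4, then 222, 292 and 303 CPM, then 129, 142 and 114 CPM. XR_002697216.1, of LOC111361863, had 103, 88 and 117 CPM at L6D4, then 10.7, 19.4 and 14.7 CPM, then 6.07, 2.81 and 3.79 CPM. In both, no library of a later stage reached any library of an earlier one. XR_002696847.1 fell 2.60-fold from L6D4 to L6D6 (adjusted p = 9.59e-05 by edgeR) and 2.12-fold from L6D6 to P0D (log2 fold change -1.09, SE 0.16, adjusted p = 0.0025 by edgeR). XR_002697216.1 fell 6.88-fold in the earlier step (adjusted p = 4.21e-05 by edgeR) and 3.54-fold in the later one (log2 fold change -1.83, SE 0.32, adjusted p = 0.0089 by edgeR). The call of XR_002697216.1 ended without L6D6 replicate 2 (adjusted p = 0.0561) or P0D replicate 2 (0.0646, edgeR). XR_002697077.1, with a mean of only 23.9 counts, had 34, 44 and 42 counts at L6D4, then 32, 33 and 26, then 3, 0 and 1. It fell after fusion (adjusted p = 0.0025 by edgeR) from 7.83 ± 0.69 to 0.36 ± 0.42 CPM (SD, n = 3 each), and its fitted log2 fold change was -4.35, or -5.59 without P0D replicate 1.

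LOC111355855 and LOC111353724 had L6D6 libraries that overlapped with those of L6D4, and both were lower at P0D. For LOC111355855, L6D6 replicates 1 and 2 lay below every L6D4 library and replicate 3 above them. XR_002696980.1, of LOC111355855, had 149.5, 142 and 161 CPM at L6D4, 112, 114 and 167 CPM at L6D6 and 67.9, 63.6 and 52.2 CPM at P0D. It fell 2.14-fold (log2 fold change -1.09, SE 0.20, adjusted p = 0.0131 by edgeR). XR_002696891.1, of LOC111353724, had 95.7, 99.9 and 92.2 CPM at L6D4, 91.7, 90.7 and 97.3 CPM at L6D6 and 55.8, 55.1 and 47.4 CPM at P0D. Its change was the smallest among the 34, at 1.77-fold (log2 fold change -0.82, SE 0.17, adjusted p = 0.0289 by edgeR), with narrow ranges at every stage. LOC111353724 overlaps Snoo, whose fruit fly counterpart is a transcriptional regulator of the Ski/Sno family, and it lies between Sptr (sepiapterin reductase, an enzyme of pterin synthesis) and ScpX (a sterol carrier protein) in ASM270686v4. The sources used here do not say whether counting used the strand, and without strand its reads cannot be told from those of Snoo. The second transcript of LOC111353724 in the table, XR_002696892.1, had no count in any library. The call of XR_002696980.1 ended without L6D6 replicate 3 (adjusted p = 0.0619) or P0D replicate 2 (0.0702), and when libraries were scaled by their totals alone (0.0522, edgeR). That of XR_002696891.1 ended without any single library of L6D6 or P0D or without L6D4 replicate 1 (0.0536 to 0.118), in a fit of L6D6 and P0D alone (0.0528) and when libraries were scaled by their totals alone (0.182, edgeR).

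Among assembled transcripts, 3 also overlapped between L6D4 and L6D6 before falling. MSTRG.2933.2 had 19.8, 20.3 and 34.4 CPM at L6D4, 19, 39.3 and 36.9 CPM at L6D6 and 3.31, 1.28 and 6.56 CPM at P0D (8.54-fold lower than at L6D6, adjusted p = 0.00408 by edgeR). MSTRG.16673.1 had 21.9, 28.4 and 21.3 CPM, then 35.4, 32 and 25.8 CPM, then 13, 11.5 and 14.4 CPM (2.40-fold, adjusted p = 0.0134 by edgeR). MSTRG.16453.1, with few counts, went from 27, 71 and 50 counts at L6D6 to 2, 6 and 4 at P0D, after 19, 23 and 7 at L6D4 (adjusted p = 0.0025 by edgeR). In these 3 the fused testis lay below both earlier stages in every library. The log2 fold change of MSTRG.2933.2 was -3.08, or -3.79 without P0D replicate 3 (edgeR). The call of MSTRG.16673.1 ended without L6D6 replicates 1 or 2 (adjusted p = 0.0795 and 0.0665) or P0D replicate 2 (0.102), and when libraries were scaled by their totals alone (0.157, edgeR).

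The 9 transcripts that rose after fusion fell into a larger set that rose above both earlier stages and a smaller set that had been high at L6D4. The first set held 6 assembled transcripts, all lowest on average at L6D4, and the second held 3 annotated ones. No annotated transcript was lowest at L6D4, and no assembled one rose back from a dip, among these 9. This split depends on the threshold, since 2 transcripts just outside it had the missing courses (adjusted p = 0.0559 by edgeR). Annotated XR_002696751.1 had means of 0.62, 22.7 and 69.5 CPM at L6D4, L6D6 and P0D. Assembled MSTRG.21261.2 had means of 133.5, 33 and 64.65 CPM.

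MSTRG.10524.2 had the smallest adjusted p of all 1913 transcripts, shared with MSTRG.17050.1. It had 11.5, 7.71 and 15.7 CPM at L6D4, 8.85, 18.2 and 12.8 CPM at L6D6, and 697, 735 and 549 CPM at P0D. The larval and prepupal testes overlapped, and the fused testis was 49.7-fold above the prepupal mean (log2 fold change 5.63, SE 0.31, adjusted p = 8.76e-07 by edgeR). MSTRG.10525.1, with the next locus number, went from 0, 1 and 4 counts at L6D6 to 35, 40 and 49 at P0D, after 1, 0 and 2 at L6D4. It rose (adjusted p = 0.0089 by edgeR) from 0.45 ± 0.59 to 10.7 ± 1.43 CPM (SD, n = 3 each). The ratio of counts of MSTRG.10524.2 to MSTRG.10525.1 was 72.2, 72 and 44.4 in the P0D libraries. In L6D6 replicates 2 and 3 it was 78 and 11.5, from only 1 and 4 counts of MSTRG.10525.1. Most L6D6 counts of MSTRG.10525.1 came from replicate 3, and its fitted log2 fold change was 4.52, or 6.07 without that library. The call of MSTRG.10525.1 ended without L6D6 replicate 2 (adjusted p = 0.0813, edgeR).

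MSTRG.5846.1 had 4.43, 3.51 and 4.56 CPM at L6D4, 4.56, 5.84 and 4.99 CPM at L6D6 and 29, 31.4 and 36.6 CPM at P0D. The rise was 6.30-fold (log2 fold change 2.64, SE 0.27, adjusted p = 0.000105 by edgeR), with little spread within any stage. MSTRG.12911.1 rose less, from 28.2, 36.9 and 32.4 CPM at L6D6 to 68.4, 62.8 and 51.5 CPM at P0D, after 28.4, 25.6 and 28.4 CPM at L6D4. Its 1.87-fold change (log2 fold change 0.90, SE 0.20) had the weakest call of the 34 (adjusted p = 0.0482 by edgeR). That call ended when any single library other than P0D replicate 3 was left out (adjusted p between 0.0635 and 0.235), in a fit of L6D6 and P0D alone (0.0811), with no filter on low counts (0.0648) and when libraries were scaled by their totals alone (0.113, edgeR).

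MSTRG.14678.1 was the only riser whose L6D6 libraries already lay above all L6D4 libraries. It had 0, 3.16 and 3.04 CPM at L6D4, 10.5, 13.1 and 13.3 CPM at L6D6 and 96.6, 165 and 31.5 CPM at P0D. The P0D libraries were all higher than the L6D6 ones but differed widely among themselves, the lowest being P0D replicate 3. Without P0D replicate 2 the log2 fold change was 2.38. With all libraries the mean rose 7.94-fold (log2 fold change 2.99, SE 0.61, adjusted p = 0.0235 by edgeR), and the call ended when any L6D6 library or P0D replicate 2 was left out (0.105 to 0.165) and when libraries were scaled by their totals alone (0.0522, edgeR). MSTRG.9767.1 was a rare transcript, with no count at L6D4, 0, 0 and 1 at L6D6 and 19, 24 and 9 at P0D (adjusted p = 0.0328 by edgeR). The pooled ratio was 52.5, with a 95% exact counting interval from 9.02 to 2110 that covers counting error only; without L6D6 replicate 3 no L6D6 count is left. Its call ended without any L6D6 library or P0D replicates 1 or 2 (adjusted p between 0.11 and 0.201, edgeR).

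The 3 annotated transcripts that rose had all dropped before and regained only part of their larval level. XR_002696920.1, without a gene match, had 836, 830 and 816 CPM at L6D4, 38.6, 50.7 and 65.4 CPM at L6D6 and 133, 159 and 162 CPM at P0D. The fused testis thus held 18.3% of the L6D4 mean, against 6.24% in the fusing testis. The rise was 2.93-fold (log2 fold change 1.55, SE 0.19, adjusted p = 0.000563 by edgeR). XR_002696705.1, of LOC111350059, had 316, 308 and 365 CPM at L6D4, 41, 38.8 and 40.5 CPM at L6D6 and 92.7, 116 and 83 CPM at P0D, where it reached 29.5% of its L6D4 mean. It rose 2.42-fold (log2 fold change 1.28, SE 0.18, adjusted p = 0.00133 by edgeR). LOC111350059 overlaps no coding gene in ASM270686v4; its coding neighbours there, LOC111349823 and LOC111350007, carry no gene names.

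XR_002696602.1, of LOC111347957, had 58.8, 55.4 and 47.6 CPM at L6D4, 2.95, 1.64 and 4.44 CPM at L6D6 and 11.6, 9.70 and 11.1 CPM at P0D, 20% of its L6D4 mean. The rise was 3.59-fold (log2 fold change 1.85, SE 0.33, adjusted p = 0.0089 by edgeR). LOC111347957 overlaps the coding gene LOC111347950, and reads of the 2 cannot be told apart if counting ignored the strand. For all 3 transcripts every P0D library lay above every L6D6 library and below every L6D4 library. The call of XR_002696602.1 ended in a fit of L6D6 and P0D alone (adjusted p = 0.0558) and when libraries were scaled by their totals alone (0.0568, edgeR).

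**Figure D4:**
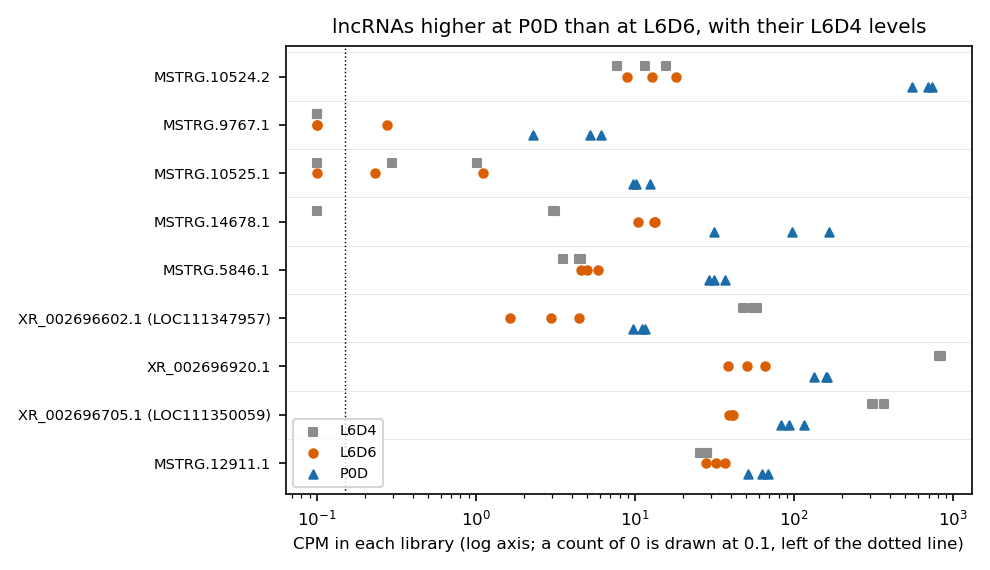
CPM in each of the 9 libraries (log axis) for the 9 lncRNAs higher at P0D than at L6D6, ordered by the fitted change, with the same symbols by stage as for the falls. The squares show the earlier level, which lay at or below L6D6 on average for 6 assembled transcripts and far above P0D for XR_002696602.1, XR_002696920.1 and XR_002696705.1.

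The called transcripts together made up a small part of the lncRNA counts, and their share was largest at L6D6. Between L6D6 and P0D, the direction for the fallers and for the risers follows from how they were chosen. Only the sizes of the shares and the L6D4 level add to it. The 25 that fell took 1.43%, 1.46% and 1.68% of all lncRNA counts in the L6D6 libraries and 0.208%, 0.347% and 0.361% in the P0D libraries. At L6D4 they had taken 0.16%, 0.141% and 0.15%. Most of the L6D6 and P0D share came from MSTRG.15510.1 and MSTRG.17032.1. Without these 2, the others took 0.106% to 0.122% at L6D4, 0.232% to 0.383% at L6D6 and 0.0423% to 0.0628% at P0D, so that P0D then lay below L6D4 rather than above it. The 9 that rose took 0.014% to 0.0197% at L6D6 and 0.0972% to 0.137% at P0D, against 0.0949% to 0.117% at L6D4. The L6D4 share of the risers came from the 3 annotated transcripts, while at P0D MSTRG.10524.2 held the most counts among them.

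**Figure D5:**
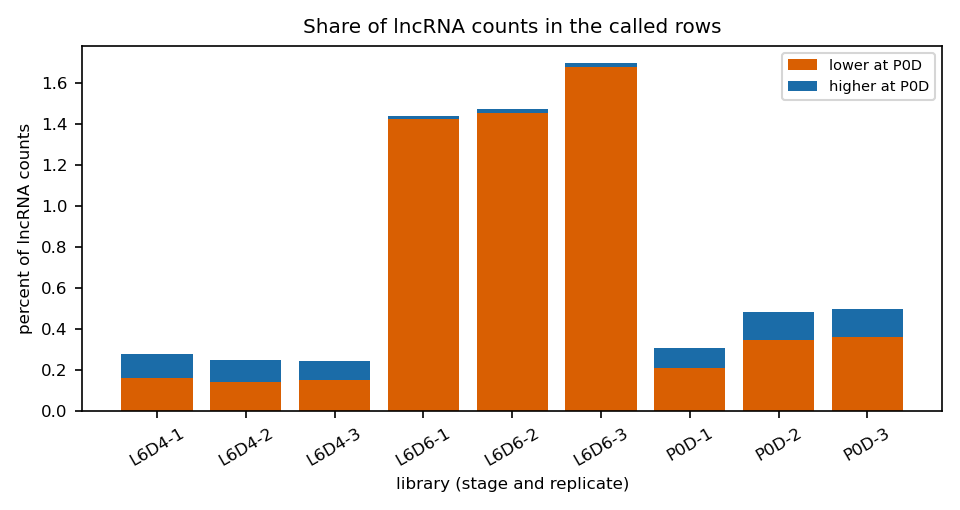
Percent of the lncRNA counts of each library (bars from 0) in the 25 transcripts lower at P0D (lower part) and the 9 higher at P0D (upper part). The lower part reaches 1.43% to 1.68% in the L6D6 libraries and is at most 0.361% in the others. The upper part is thinnest at L6D6. Between L6D6 and P0D both directions follow from the choice of these transcripts.

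By kind of transcript, 10 of 248 tested annotated transcripts were called (4.03%), 3 higher and 7 lower, and 24 of 1665 assembled ones (1.44%), 6 higher and 18 lower. The median log2 fold change was 0.01 in both kinds, as over all tested transcripts. Of the 132 tested transcripts with a RefSeq gene, 6 were called, 2 of them among the 38 whose gene overlaps a coding gene. Of 329 tested transcripts from loci with several transcripts in the table, 1 was called (0.304%), against 33 of 1584 from loci with 1 transcript (2.08%). That single call was XR_002696891.1, whose partner XR_002696892.1 had no count. Annotated transcripts without a gene match were taken as loci of their own. When transcripts were summed by locus before the edgeR fit, 44 of 1752 loci were called, while the called transcripts came from 34 loci. By mean level over the 9 libraries, 4 of 487 were called under 10 CPM (0.821%), 20 of 958 from 10 to 100 CPM (2.09%), 8 of 390 from 100 to 1000 CPM (2.05%) and 2 of 78 from 1000 CPM (2.56%). Among the 11 tested transcripts with no count at L6D4, 3 were called, MSTRG.13874.1, MSTRG.15511.1 and MSTRG.9767.1. That group passed the filter on low counts only through its later stages. No difference between these classes was tested.

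Just outside the threshold, 4 transcripts shared an adjusted p of 0.0559 (edgeR). XR_002696751.1 had 24.7, 11 and 32.4 CPM at L6D6 and 54.6, 94.7 and 59.3 CPM at P0D, after 1, 3 and 1 counts at L6D4. MSTRG.17784.1 had 4.29, 2.57 and 5.55 CPM at L6D6 and 10.2, 15.6 and 18.9 CPM at P0D, beside 3.84, 9.12 and 6.585 CPM at L6D4. MSTRG.21261.2 had 24.7, 37.6 and 36.6 CPM at L6D6 and 52.4, 63 and 78.5 CPM at P0D, beside 139, 128 and 133 CPM at L6D4. In these 3 the L6D6 and P0D libraries did not overlap. MSTRG.8613.1 had 229, 345 and 0 counts at L6D6 and none at P0D, so 1 L6D6 library was like the fused testis. The L6D6 mean of MSTRG.8613.1 was at least 182-fold above the floor of 3 counts at P0D, and at L6D4 it had 229, 115 and 228 counts. Just inside the threshold were MSTRG.12911.1 and MSTRG.9767.1, described above.

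The transcripts that took most counts did not pass the test in this step. On the log2 scale the fitted change was 0.14 (SE 0.27) for MSTRG.17821.1 and -0.08 (SE 0.30) for XR_002696881.1, of LOC111353488 (adjusted p = 0.932 and 0.961 by edgeR). Their P0D libraries spread widely, at 407800, 305500 and 204500 CPM for MSTRG.17821.1 and 286200, 211100 and 119600 CPM for XR_002696881.1, and at 52950, 39100 and 28550 CPM for XR_002696880.1, of LOC111353481 (log2 fold change 0.02, SE 0.23, adjusted p = 0.993, edgeR). The L6D6 ranges, 252800 to 295100, 202800 to 232900 and 35620 to 41870 CPM, lay inside the P0D ranges. Much of the P0D spread in CPM is that of the TMM factors, which were 0.85, 1.057 and 1.448 in these libraries. As plain shares of the library total, the P0D libraries held 34.7%, 32.3% and 29.6% for MSTRG.17821.1, 24.3%, 22.3% and 17.3% for XR_002696881.1, and 4.50%, 4.13% and 4.13% for XR_002696880.1.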

How the data were processed

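RNA of testes was sequenced by the submitters after ribosomal RNA removal and dUTP strand marking on an Illumina NovaSeq instrument, per the labels' protocols; the molecule label reads polyA RNA instead. The submitters' processing notes name DESeq2 1.6.3, StringTie 1.3.4, HISAT2 2.1.0, Bowtie2 2.2.8 and fastp 0.18.0 without roles. The sources used here do not give the counting tool, the genome build, the lncRNA filters or the use of strand. The authors deposited an estimated count (expected count) per transcript and library, not scaled to depth; 62% to 66% of the values of a library were exactly whole. The tests had been planned for counts and were run on values rounded to whole counts.

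The main fit was edgeR 4.0.16 (R 4.3.3) quasi-likelihood with TMM and filterByExpr by stage on all 9 libraries, which share 1 spread (6 degrees of freedom per transcript; common biological coefficient of variation 0.28). It left out 563 low transcripts, 155 of them at 0 throughout. Adjusted p are Benjamini-Hochberg over 1913 transcripts, called under 0.05. A fold is the ratio of mean CPM, and the log2 fold change is fitted. Each SE from edgeR is the size of the log2 fold change over the square root of the test's F statistic. Such an SE restates the test and is not a separate measure of spread. Floors (3 counts over a stage) and counting intervals cover counting error only. Every transcript called is reported; those with a mean count of at least 50 and non-overlapping CPM are given singly. The transcripts and classes were chosen with earlier results of these data known. Libraries of a stage differed by more than counting noise (chi-square over degrees of freedom 15.5 to 126). RefSeq accessions were matched, without version, to genes of ASM270686v4 (275 of 557 matched); its coordinates were not used beyond naming neighbours. Alternatives used DESeq2 1.42.0, limma 3.58.1 (voom), other scalings and filters, a replicate block and each library left out. The procedure was tested on simulated data.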

Additional observations from a re-analysis of the deposited data

How the results depend on the processing

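Of 17 alternatives, none reversed any of the 34 called transcripts. In all 17, 23 transcripts stayed called, 4 higher and 19 lower, and 11 lost their call in 1 or more; of 578 recomputed values, 57 lost the call. DESeq2 called 63 transcripts with 29 higher, and limma-voom called 19 higher, against 9 in edgeR's main result. Leaving out 1 library gave between 26 and 45 calls, with 6 to 17 higher and 20 to 28 lower. The lowest counts of calls came without L6D6 replicate 2 or P0D replicate 2. Scaled by library totals alone, 28 were called, 6 higher and 22 lower, and the median log2 fold change of all tested transcripts was 0.05. The share of calls that were higher was 26.5% in the main result, 46% with DESeq2 and 41.3% with limma-voom. No pairing by replicate number was seen, though 3 libraries a stage are too few to exclude one. Deviations from the stage means of same-numbered L6D6 and P0D libraries correlated at -0.127, 0.0903 and 0.0974. Only L6D6 replicate 3 correlated best with its own number. With a replicate block 29 transcripts were called, 6 higher and 23 lower, 27 of them among the 34. The block ended the calls of MSTRG.16673.1 (adjusted p = 0.0504), XR_002696980.1 (0.0511), MSTRG.14678.1 and MSTRG.14823.1 (both 0.0545), XR_002696891.1 (0.101), MSTRG.9767.1 (0.112) and MSTRG.12911.1 (0.117, edgeR). The unrounded values gave 34 calls, the same 34 transcripts.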
